A study of Mus musculus with 8 samples.

Results

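The 36 genes described here mark the cells of brain blood vessels, and their mRNA was compared in the ventral tegmental area (VTA) of 4 socially stressed (SS) and 4 control (CTR) mouse pups. They were taken as a fixed list of gene symbols out of the 54735 genes in the count table, and sorted by the cell type or task they are known for: 16 endothelial genes, 3 tight junction genes, 8 barrier transport genes, 6 pericyte genes and 3 smooth muscle genes. The rule itself uses no measured value, although earlier results of these data were known when the genes were chosen. The VTA is a midbrain region rich in dopamine neurons. All mice were of the inbred DBA2/J strain and are given as males at postnatal day 21 in the labels, while the study's text puts the tissue collection 1 day later. SS pups had been exposed to a threatening adult mouse, given in the study's methods as a gonadectomized CD1 male, for 30 min on each of 7 days between postnatal days 14 and 21. CTR litters were left unhandled. Bilateral punches of the VTA from each mouse gave 1 RNA library. The study allowed more than 1 pup per litter, so pups of a group may share a litter, which the labels do not give. The comparison asks whether repeated social stress in early life was accompanied by a different level of vascular mRNAs in this region.

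Brain capillaries are tubes of endothelial cells sealed by tight junctions, which close the path between cells and so form the blood-brain barrier. Carriers in the endothelial membrane bring in glucose, amino acids and lipids, and pumps return drugs and other compounds to the blood. Pericytes wrap the capillaries inside a shared basement membrane, and smooth muscle cells surround arterioles. In the rodent brain these vessels and their mural cells are still maturing in the third postnatal week. Several of the genes are not confined to vessels: Bsg, Tjp1, Slc2a1 and Slc7a5 are also made by neurons, glia or both. In a bulk punch, fewer cells of a type and less RNA per cell cannot be told apart.

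The stretches before the transcription start are shown for 4 members that carry the description: Ocln and Slc2a1, the 2 genes whose CTR and SS values did not overlap, Flt1 as an endothelial gene, and Myl9 as a smooth muscle gene. They are read 5′ to 3′ on the strand of the gene from RefSeq (GRCm38.p6). Each begins 250 bases before the RefSeq start and stops before the first GENCODE exon. Capitals mark the GC box (GGGCGG on either strand) in Ocln and Slc2a1, the core of the ETS motif (AGGAAG on either strand) in Flt1, and the CArG box of smooth muscle genes in Myl9, allowing 1 of its 6 inner letters to differ.
Ocln, chr13:100552719-100552968, minus strand: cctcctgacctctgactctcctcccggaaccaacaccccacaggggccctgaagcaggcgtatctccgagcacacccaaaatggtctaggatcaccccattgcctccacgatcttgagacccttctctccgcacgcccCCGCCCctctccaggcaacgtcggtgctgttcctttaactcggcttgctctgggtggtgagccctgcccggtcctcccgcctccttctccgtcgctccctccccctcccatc
Slc2a1, chr4:119108495-119108710, plus strand: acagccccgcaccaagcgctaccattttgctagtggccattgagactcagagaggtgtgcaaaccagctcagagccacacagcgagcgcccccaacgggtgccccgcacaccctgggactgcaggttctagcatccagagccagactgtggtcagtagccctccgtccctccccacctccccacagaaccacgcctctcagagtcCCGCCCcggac
Flt1, chr5:147726012-147726261, minus strand: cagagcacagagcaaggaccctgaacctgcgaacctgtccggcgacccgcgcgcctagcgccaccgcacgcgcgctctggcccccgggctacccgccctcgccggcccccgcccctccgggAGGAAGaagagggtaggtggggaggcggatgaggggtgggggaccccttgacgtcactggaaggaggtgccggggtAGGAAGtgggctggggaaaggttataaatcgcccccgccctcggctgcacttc
Myl9, chr2:156775214-156775419, plus strand: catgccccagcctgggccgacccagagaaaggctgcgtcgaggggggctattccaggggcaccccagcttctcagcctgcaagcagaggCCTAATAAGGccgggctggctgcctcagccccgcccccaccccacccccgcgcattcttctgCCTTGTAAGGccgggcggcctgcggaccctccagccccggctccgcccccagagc

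Of the 36 members, 25 have an entry in the RefSeq promoter table. Esam, Sox17, Ly6a, Vwf, Cdh5, Pecam1, Slc7a5, Bsg, Pdgfrb, Higd1b and Tagln have none. ETS proteins are transcription factors with a large part in endothelial gene expression. The ETS core was found in the 250 bases upstream of 8 of the 10 endothelial members with an entry, compared with 32.3% of the 27025 genes in the table. It was also found in 4 of 6 barrier transport members, and in 0 of 3 tight junction, 0 of 4 pericyte and 0 of 2 smooth muscle members. The GC box was present in 12 of the 25 members and in 35.4% of all genes. The CArG box is bound by serum response factor. The strict box was found in Myl9 alone among the 25, and in 1.62% of all genes. With 1 inner letter free it was found in 7 of the 25 members, and in 9.78% of all genes. Myl9 and Acta2 had 2 matches each, and the endothelial genes Egfl7, Eng and Kdr, the transport gene Slco1a4 and the tight junction gene Ocln had 1 each. The GC box and the relaxed CArG box were added to the search after the data were seen. A match is a description of these letters and not a site of binding.

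Library totals ranged from 20036086 (CTR-1) to 47319997 (SS-3) counts. CTR-1 and CTR-2 were poorer in low transcripts: of 1991 genes averaging 1 to 3 CPM (counts per M counts of the library), 434 were without a count in CTR-1 and 355 in CTR-2, against 1 to 94 in each of the other 6 libraries. In CTR-5 and SS-5 the sex-linked transcripts went against the male label, with 14997 and 6551 counts of Xist and at most 2 counts of any of 4 Y-linked genes. Ttr, a choroid plexus gene, was at 234 CPM in CTR-5 and at most 18.8 CPM elsewhere. The dopamine neuron markers (Th, Slc6a3, Ddc, Slc18a2, Nr4a2 and Dlk1) had counts in every library, with a summed level of 1067 to 2374 CPM in CTR and 353 to 449 CPM in SS.

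All 36 members were detected and all passed edgeR's filter on low counts, 2 of them (Higd1b and Tagln) with a library at 0. Levels below are CPM of the TMM-normalized library, and a level per kb is this value divided by the length of the exons of the gene. Bsg, which encodes the membrane glycoprotein basigin, was the most abundant member per length at 271 CPM per kb over the 8 libraries. The next were Slc2a1 at 32.1, Rgs5 at 30.6, Itm2a at 26.8, Vtn at 23.5 and Cldn5 at 22.5 CPM per kb. At the other end stood Anpep at 0.739, Vwf at 0.836 and Emcn at 1.24 CPM per kb. The order ran across the classes, with each of the transport, pericyte, endothelial and tight junction classes represented among the top 6.

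**Figure D1:**
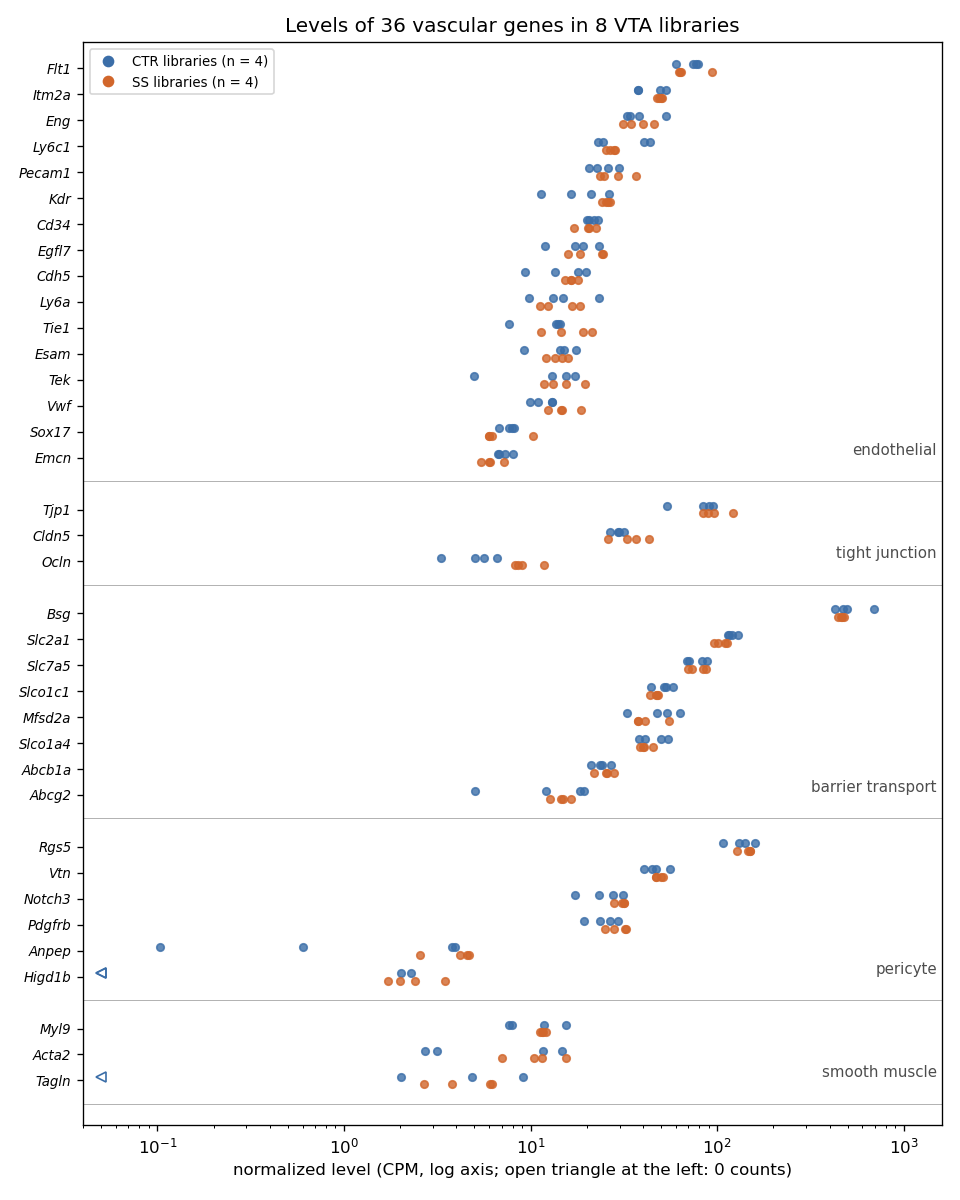
Normalized level (CPM, log axis, not divided by length) of each of the 36 members in every library, by class, with CTR libraries in blue, SS libraries in orange and open triangles for 0 counts. Most members have mixed blue and orange points, and the widest scatter, in Higd1b, Anpep and Tagln, is among CTR libraries.

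None of the 36 members passed the test between SS and CTR. In edgeR's quasi-likelihood test, adjusted after Benjamini-Hochberg over the 16538 tested genes, 0 members had an adjusted p under 0.05, where 0.0847% of all tested genes did (0.0% higher and 0.0847% lower in SS). The smallest adjusted p of a member by the same test was 0.70 (Ocln). DESeq2 with default options also called 0 members, against 0.419% of its tested genes, and limma voom called 0 against 0.103%. At an unadjusted p under 0.05, 1 member was called by edgeR (Ocln, higher in SS), while 6.55% of all tested genes were (2.85% higher, 3.7% lower). The count by edgeR was 3 higher without CTR-5, 2 higher without SS-5, and 1 higher without any other single library. The share of all tested genes in these smaller fits is not given, so these counts cannot be set against it. DESeq2 gave 2 members against 8.44%, and voom gave 1 against 7.56%.

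The sizes of the differences were those of genes at large. The log2 fold change, SS relative to CTR, was positive in 24 members and negative in 12, with a median of 0.11 against 0.0037 over all tested genes. The median absolute log2 fold change was 0.194 for the members and 0.193 for all tested genes. It was below 0.3 in 29 members and above 0.5 in 3 (Ocln, Anpep and Higd1b). For 31 members the 95% interval of the log2 fold change lay between -1 and 1, so that a 2-fold difference in either direction was outside it. The other 5 were Ocln, Higd1b, Anpep, Acta2 and Tagln, all of them genes of low level or of wide scatter among CTR libraries. The median log2 fold change moved with the libraries used. Without CTR-2 it was -0.0081, with 17 members higher and 19 lower in SS. Without CTR-1 and CTR-2 together it was 0.028, with 19 higher and 17 lower. Without CTR-5 and SS-5 it was 0.14, with 24 higher and 12 lower.

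**Figure D2:**
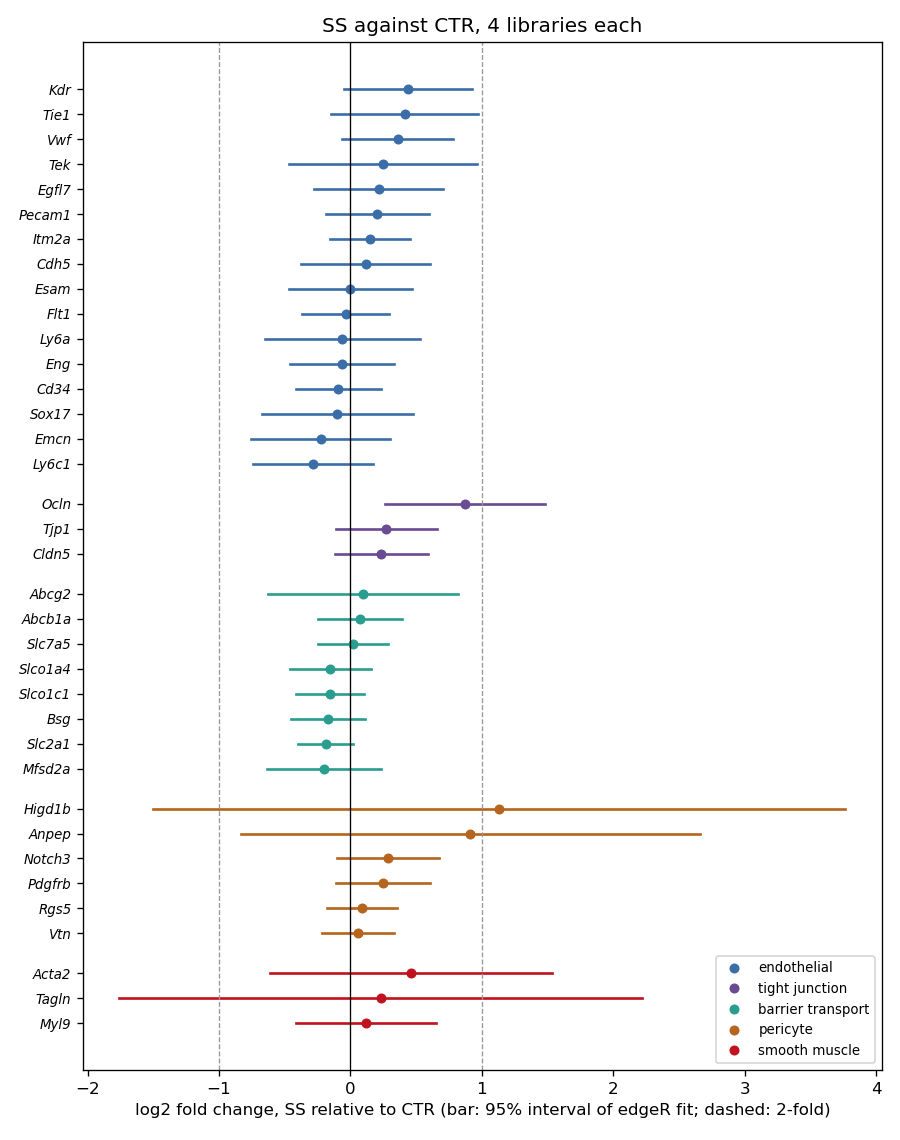
Log2 fold change (SS relative to CTR) of each member with its 95% interval from edgeR, grouped by class, with 4 libraries per group. Intervals of Higd1b, Tagln and Anpep are the widest, Ocln is the only member whose interval lies above 0, and no interval lies below 0.

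The CTR and SS values did not overlap in 2 members, Ocln (SS above) and Slc2a1 (SS below). This happened in 4.67% of all tested genes (2.47% above and 2.21% below). With 4 libraries a group, values that do not overlap fix the exact two-sided permutation p at 0.029, the smallest that the 70 assignments allow, so it adds nothing to the absence of overlap. Without CTR-5 and SS-5, 9 members did not overlap, 5 above and 4 below, where 20.1% of the tested genes did not (10.9% above and 9.28% below). Without CTR-1 and CTR-2, 4 members did not, 1 above and 3 below, where 15.3% of the tested genes did not (7.5% above and 7.76% below). The libraries with extreme values were not spread evenly. CTR-2 had the lowest value in 16 of the 36 members, against 21.5% of all tested genes, and SS-4 had the highest in 10, against 11.7%. CTR-1 was at both ends, with the lowest value in 9 members (32.7% of all genes) and the highest in 9 (25.7%).

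Among endothelial genes, 9 of 16 had a higher and 7 a lower mean in SS, and 0 passed the test. Their median log2 fold change was 0.06. It was -0.06 without CTR-1 and CTR-2, -0.04 without CTR-2 alone, and 0.09 without CTR-5 and SS-5. The mean log2 CPM of the class was 4.20 ± 0.22 in CTR (SD, n = 4) and 4.30 ± 0.13 in SS (SD, n = 4). CTR-2 was the lowest library at 3.88, and the other 7 lay between 4.16 and 4.42.

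Itm2a, a membrane protein gene enriched in brain endothelium, was the most abundant endothelial member per length. It was at 37.5, 37.4, 53.0 and 49.5 CPM in the 4 CTR libraries in order of their numbers, and at 47.5, 49.7, 50.7 and 48.9 CPM in SS-2 to SS-5. The SS values lay inside the range of CTR, in which CTR-1 and CTR-2 were low. The groups differed by a log2 fold change of 0.15 (SE 0.14), of -0.06 without CTR-1 and CTR-2, and of 0.21 without CTR-5 and SS-5.

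The receptors for vascular endothelial growth factor (VEGF) had values on either side of 0. Flt1, which encodes VEGF receptor 1, was at 60.3, 74.5, 76.6 and 79.0 CPM in the CTR libraries and at 63.1, 63.9, 94.0 and 62.4 CPM in the SS libraries. SS-4 stood above all other libraries, and the other 3 SS values lay near the low end of CTR. Its log2 fold change was -0.04 (SE 0.15), or 0.06 without CTR-5 and SS-5. Kdr, the gene for VEGF receptor 2 and the main signalling receptor of angiogenesis, was at 11.4, 16.4, 21.04 and 26.4 CPM in CTR and at 24.1 to 26.6 CPM in SS. CTR-1 and CTR-2 were the low values here too, and CTR-5 lay inside the SS range. The log2 fold change of Kdr was 0.44 (SE 0.22, edgeR adjusted p = 0.75), 0.10 without CTR-1 and CTR-2, and 0.64 without CTR-5 and SS-5.

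Tie1 and Tek, the receptor pair of the angiopoietin pathway, were both lowest in CTR-2. Tie1 was at 13.7, 7.68, 14.0 and 14.3 CPM in CTR and at 14.6, 11.3, 19.0 and 21.5 CPM in SS. The difference was 0.41 on the log2 scale (SE 0.26), 0.22 without CTR-1 and CTR-2, and 0.34 without CTR-5 and SS-5. Tek ranged from 4.97 to 17.2 CPM in CTR and from 11.8 to 19.6 CPM in SS, and its log2 fold change of 0.25 (SE 0.33) became -0.12 without CTR-1 and CTR-2 and 0.42 without CTR-5 and SS-5. The adhesion genes of the endothelial junction had small differences. Pecam1, which encodes the surface protein CD31, averaged 24.7 ± 3.99 CPM in the CTR libraries and 28.5 ± 5.95 CPM in those of SS (SD, n = 4 each). Cdh5, which encodes VE-cadherin, was at 15.2 ± 4.71 and 16.5 ± 1.02 CPM, and Esam at 14.0 ± 3.52 and 14.0 ± 1.63 CPM (SD, n = 4 each).

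Vwf, the gene for the von Willebrand clotting factor, had the largest positive log2 fold change of the class after Kdr and Tie1, at 0.36 (SE 0.19), with 9.94 to 13.1 CPM in CTR and 12.4 to 18.7 CPM in SS. The 2 groups overlapped, and the value was 0.39 without CTR-1 and CTR-2. Ly6c1 and Ly6a encode surface proteins of capillary endothelium. Ly6c1 had a log2 fold change of -0.28 (SE 0.21), which became -0.12 without CTR-1 and -0.17 without CTR-3, with 43.5 and 40.6 CPM in CTR-1 and CTR-3, 22.9 and 24.4 CPM in CTR-2 and CTR-5, and 25.2 to 28.2 CPM in SS. Part of its sequence is not its own: 19% of the 75-base windows in its transcripts also occur in Ly6c2 or Ly6a, and 6.33% of those of Ly6a occur in Ly6c1 or Ly6i, so their counts are uncertain.

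Sox17, a transcription factor of arterial endothelium, was at 7.65, 7.96, 6.74 and 8.10 CPM in CTR and at 5.98, 5.996, 6.21 and 10.2 CPM in SS. The 3 SS libraries with male-typical transcripts were below every CTR library and SS-5 was above all. Between groups the log2 fold change was -0.10 (SE 0.26), and -0.30 without CTR-5 and SS-5. Of its windows, 14.1% also lie in a transcript annotated on the opposite strand, which had 6 counts in all. Eng, a co-receptor for transforming growth factor beta, was at 32.8 to 53.0 CPM in CTR and 31.2 to 45.7 CPM in SS. It overlaps Fpgs on the opposite strand, a gene with 2228 counts, and it is not stated whether counting used the strand. The progenitor and sialomucin genes Cd34 and Emcn had log2 fold changes of -0.09 (SE 0.15) and -0.23 (SE 0.24), and Egfl7, which encodes a secreted endothelial protein, of 0.22 (SE 0.22). The value of Egfl7 was 0.064 without CTR-2, 0.13 without SS-4, 0.36 without CTR-3 and 0.039 without CTR-1 and CTR-2.

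The 3 tight junction genes all had a higher mean in SS, and 0 of 3 passed the test after adjustment. Their median log2 fold change was 0.27, and it was 0.30 without CTR-1 and CTR-2 and 0.40 without CTR-5 and SS-5. The class mean was 4.13, 4.61, 4.597 and 4.68 log2 CPM in the CTR libraries and 4.98, 4.99, 5.18 and 4.74 log2 CPM in the SS libraries, so that the groups did not overlap. The gap between the highest CTR and the lowest SS library, CTR-5 and SS-5, was small beside the range of either group. Of the 3 genes, only Ocln had groups that did not overlap. The summed CPM of the class did overlap, at 86.7 to 128 CPM in CTR and 123 to 166 CPM in SS.

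Ocln, which encodes occludin, a membrane protein of the junction strands, had the largest difference of the 3. It was at 3.31, 5.05, 5.62 and 6.57 CPM in the CTR libraries and at 8.56, 9.02, 11.9 and 8.28 CPM in the SS libraries. Every SS library was above every CTR library, and the lowest CTR value was that of CTR-1. The mean was 5.14 ± 1.37 CPM in the CTR libraries and 9.43 ± 1.65 CPM in those of SS (SD, n = 4 each). This was a log2 fold change of 0.87 (SE 0.28, 95% interval 0.26 to 1.48), with an unadjusted p of 0.0089 and an adjusted p of 0.70 in edgeR's quasi-likelihood test. DESeq2 gave an adjusted p of 0.19. The value was 0.63 without CTR-1 and CTR-2 and 1.07 without CTR-5 and SS-5, and its edgeR adjusted p ranged from 0.193 to 0.999 over the libraries left out in turn. With the replicate number as a block in edgeR it was 0.59, and 0 tight junction genes had an unadjusted p under 0.05. The gene lies on chromosome 13 (100496507 to 100552718, minus strand, GRCm38), and none of the 75-base windows of its transcripts occurs in another gene.

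Cldn5, which encodes claudin-5, the main sealing protein of the brain endothelium, was at 29.4, 31.6, 29.7 and 26.7 CPM in CTR and at 42.9, 36.6, 32.8 and 25.9 CPM in SS. SS-2 to SS-4 were above every CTR library and SS-5 was the lowest of all 8. The log2 fold change was 0.24 (SE 0.16, edgeR adjusted p = 0.80). It was 0.12 without SS-2, 0.35 without SS-5, and 0.31 without CTR-5 and SS-5. Tjp1, which encodes the scaffold protein ZO-1, was at 54.0, 90.5, 83.8 and 94.7 CPM in CTR and at 84.1, 96.6, 121 and 88.8 CPM in SS. CTR-1 was low, and the other 3 CTR values reached into the SS range. Without CTR-1 and CTR-2 the log2 fold change of 0.27 (SE 0.18) was 0.13, and without CTR-5 and SS-5 it was 0.40. Across the class, SS-4 was the highest library for Ocln and Tjp1.

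**Figure D3:**
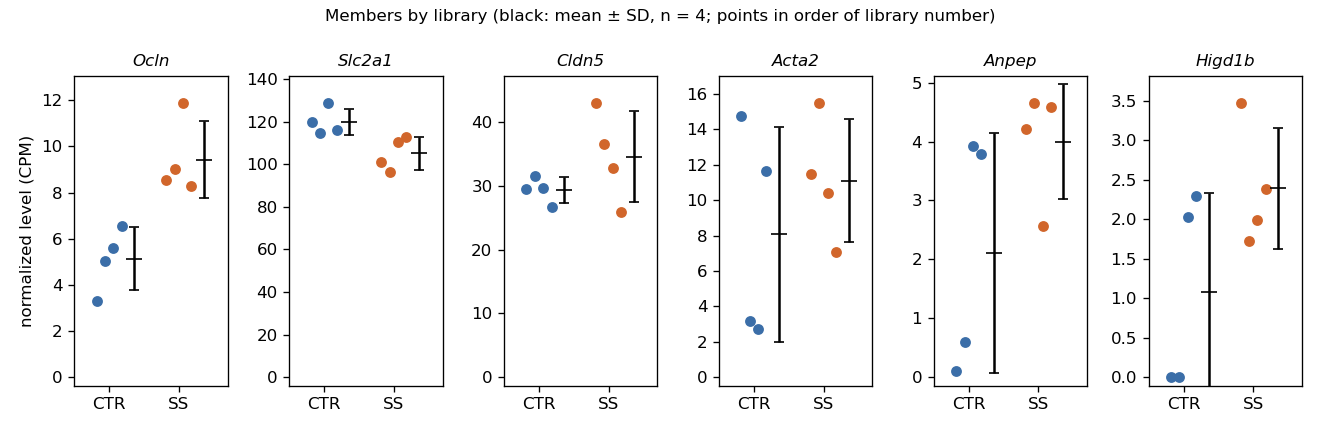
CPM of 6 members in every library, with points in order of library number and the mean ± SD of 4 libraries in black (the lower bar of Higd1b in CTR runs below 0 and is clipped). Ocln values of SS lie above those of CTR and Slc2a1 values of SS below them, while Acta2, Anpep and Higd1b spread widely within CTR.

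Of the 8 barrier transport genes, 3 had a higher and 5 a lower mean in SS. Their median log2 fold change was -0.15, and 0 passed the test. The median was -0.08 without CTR-1 and CTR-2 and -0.14 without CTR-5 and SS-5. The class mean was 5.89 ± 0.11 log2 CPM in CTR and 5.84 ± 0.09 log2 CPM in SS (SD, n = 4 each), and the groups overlapped.

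Slc2a1, which encodes the glucose carrier GLUT1, was below CTR in each SS library. It was at 120, 115, 129 and 116 CPM in CTR and at 101, 96.2, 110 and 113 CPM in SS. The distance between the lowest CTR and the highest SS library was small beside the spread within each group. On the log2 scale the difference was -0.19 (SE 0.10, 95% interval -0.40 to 0.02, unadjusted p = 0.071, adjusted p = 0.75 in edgeR). It was -0.22 without CTR-1 and CTR-2 and -0.24 without CTR-5 and SS-5. The gene lies on chromosome 4 (119108711 to 119137983, plus strand, GRCm38).

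Bsg, whose protein accompanies lactate carriers to the membrane, was at 690, 428, 495 and 469 CPM in CTR and at 464, 443, 463 and 480 CPM in SS. CTR-1 stood above the other 7 libraries, which lay between 428 and 495 CPM. With all libraries the log2 fold change was -0.17 (SE 0.13). It was -0.06 without CTR-1 and CTR-2 and -0.24 without CTR-5 and SS-5. Mfsd2a encodes the carrier of the omega-3 fatty acid docosahexaenoic acid and restrains vesicle transport across the endothelium. It was at 53.8, 62.9, 47.3 and 32.9 CPM in CTR and at 37.5, 37.6, 55.4 and 41.1 CPM in SS. The difference of -0.20 on the log2 scale (SE 0.20) turned to 0.10 without CTR-1 and CTR-2 and was -0.33 without CTR-5 and SS-5. The 2 poorer libraries were among its 3 highest values.

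The efflux pumps had differences close to 0. Abcb1a, the gene for P-glycoprotein, averaged 24.0 ± 2.34 CPM in the CTR libraries and 25.2 ± 2.54 CPM in those of SS (SD, n = 4 each), and 17.1% of its windows occur also in Abcb1b or other genes. Abcg2, which encodes the breast cancer resistance protein, was at 5.06 CPM in CTR-1 and at 12.1 to 19.2 CPM in the other 7 libraries. The organic anion carriers Slco1a4 and Slco1c1, the latter a thyroxine carrier, had log2 fold changes of -0.15 (SE 0.14) and -0.15 (SE 0.12). That of Slco1a4 was -0.058 without CTR-5, -0.23 without CTR-2, -0.050 without CTR-5 and SS-5, and -0.34 without CTR-1 and CTR-2. That of Slco1c1 was -0.093 without CTR-1, -0.062 without CTR-1 and CTR-2, and -0.23 without CTR-5 and SS-5. Slc7a5, the large neutral amino acid carrier LAT1, averaged 77.5 ± 9.37 CPM in the CTR libraries and 78.5 ± 8.42 CPM in those of SS (SD, n = 4 each), with 0.02 (SE 0.12) as the log2 fold change.

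**Figure D4:**
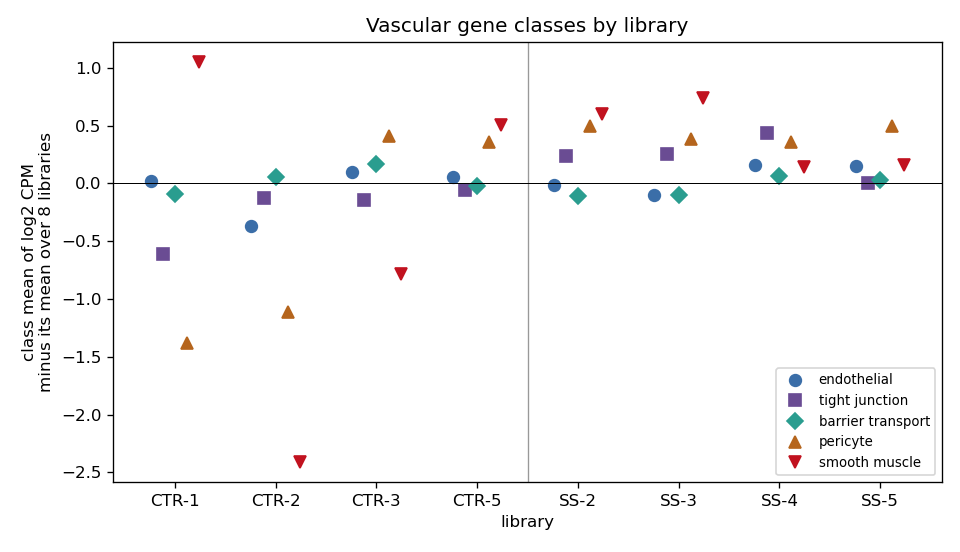
Mean log2 CPM of each of the 5 classes in every library, minus its mean over the 8 libraries, so that 0 is the average library. Endothelial and transport means stay within 0.4 of 0. The pericyte mean is low in CTR-1 and CTR-2, where Higd1b had no count, and the smooth muscle mean spreads most among the CTR libraries.

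All 6 pericyte genes had a higher mean in SS, and 0 passed the test. The median log2 fold change was 0.27, and it was 0.30 without CTR-5 and SS-5. It was 0.05 without CTR-1 and CTR-2, the 2 libraries poor in low transcripts. In the class mean these stood at 2.48 and 2.75 log2 CPM, while CTR-3, CTR-5 and the 4 SS libraries lay between 4.22 and 4.36. Relative to the endothelial mean of the same library, the pericyte mean was 1.79 lower in CTR-1 and 1.13 lower in CTR-2 on the log2 scale, and between 0.19 lower and 0.12 higher in the other 6. These low means rest largely on Higd1b, without a count in CTR-1 and CTR-2, and Anpep, with 2 and 15 counts. The summed class differed less, at 222, 196, 260 and 260 CPM in the CTR libraries and 241 to 269 CPM in SS. Among the 6 genes, the lowest levels had the widest gaps.

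Anpep, which encodes aminopeptidase N, a surface enzyme of brain pericytes, was at 0.103, 0.606, 3.93 and 3.79 CPM in CTR and at 4.21, 4.65, 2.56 and 4.58 CPM in SS. CTR-1 and CTR-2 were near 0 and the other 2 CTR libraries lay inside the SS range. Its log2 fold change was 0.91 (SE 0.80, edgeR adjusted p = 0.85), 0.05 without CTR-1 and CTR-2, and 1.30 without CTR-5 and SS-5. Higd1b, a gene of a small mitochondrial protein, used as a pericyte marker, had 0 counts in CTR-1 and CTR-2, where 3 counts would be 0.155 and 0.121 CPM. It was at 2.03 and 2.29 CPM in CTR-3 and CTR-5, and at 3.47, 1.72, 1.996 and 2.39 CPM in SS. Its log2 fold change of 1.13 (SE 1.21) was the largest of the members and the least precise, and it was 0.15 without CTR-1 and CTR-2 and 1.82 without CTR-5 and SS-5.

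The abundant pericyte genes had smaller differences. Rgs5, a regulator of G-protein signalling and the most abundant of the class per length, was at 131, 108, 141 and 159 CPM in CTR and at 127, 150, 150 and 145 CPM in SS. The SS values lay inside the range of CTR, and the log2 fold change was 0.09 (SE 0.12). Vtn, which encodes vitronectin, averaged 46.9 ± 6.46 CPM in the CTR libraries and 48.7 ± 2.16 CPM in those of SS (SD, n = 4 each). Pdgfrb, the platelet-derived growth factor receptor that recruits pericytes, had a log2 fold change of 0.25 (SE 0.16), with 19.3 to 29.4 CPM in CTR and 25.0 to 32.3 CPM in SS. It was 0.15 without CTR-2, and also without CTR-1 and CTR-2. Notch3, a receptor of mural cells, was at 17.3, 23.4, 27.8 and 31.1 CPM in CTR and at 28.1 to 31.6 CPM in SS. Its log2 fold change was 0.29 (SE 0.18), 0.05 without CTR-1 and CTR-2, and 0.41 without CTR-5 and SS-5. A transcript on its opposite strand, with 668 counts, shares 4.23% of its windows.

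The 3 smooth muscle genes also had a higher mean in SS, and 0 passed the test. Their median log2 fold change was 0.23. It was the least stable of the 5 classes, at -0.01 without CTR-2, 0.01 without CTR-3, 0.91 without CTR-1, 0.44 without CTR-1 and CTR-2, and 0.80 with limma voom. The class mean was 3.68, 0.22, 1.85 and 3.14 log2 CPM in the CTR libraries and 2.78 to 3.38 log2 CPM in the SS libraries. The low value of CTR-2 includes Tagln, which had no count there.

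Acta2, which encodes smooth muscle alpha-actin, was at 14.7, 3.15, 2.72 and 11.7 CPM in CTR and at 11.5, 15.5, 10.4 and 7.05 CPM in SS. CTR-1 and CTR-5 lay with the SS libraries, and CTR-2 and CTR-3 were below all of them. Acta2 had a log2 fold change of 0.46 (SE 0.49, edgeR adjusted p = 0.88), which ranged from 0.17 without CTR-3 to 0.91 without CTR-1. Myl9, a regulatory light chain of myosin and the most abundant of the class per length, was again higher in CTR-1 and CTR-5 than in CTR-2 and CTR-3, with 15.4, 7.64, 7.95 and 11.8 CPM, and was at 11.6, 11.5, 11.3 and 12.02 CPM in SS. Its SS values differed little from each other and lay between the CTR extremes, with a log2 fold change of 0.12 (SE 0.24). Tagln, which encodes transgelin, was at 9.15, 0, 2.03 and 4.86 CPM in CTR and at 6.07, 6.18, 2.67 and 3.81 CPM in SS. CTR-2 had no count, where 3 counts would be 0.121 CPM. Its level is uncertain, since 53.3% of its windows occur also in Gm48529 or Pcsk7 on the opposite strand, and Pcsk7 had 5565 counts. CTR-1 and CTR-2, the libraries poor in low transcripts, lay at opposite ends of this class. Relative to the endothelial mean of the library, the smooth muscle mean was 0.59 lower in CTR-1 and 3.66 lower in CTR-2 on the log2 scale. It was 0.78 to 1.64 lower in SS. The value of CTR-2 rests largely on Tagln, as Acta2 and Myl9 had similar levels in CTR-2 and CTR-3. The summed class was 39.3, 10.8, 12.7 and 28.3 CPM in the CTR libraries.

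Further vascular genes were read from 6 lists of 116 genes, of which 111 passed the filter. None of the 111 passed edgeR's test after adjustment, and DESeq2 called 1 (Col4a1). At an unadjusted p under 0.05, 10 were higher and 1 lower in SS, against 2.85% and 3.7% of all tested genes. These counts moved with the libraries used. They were 3 and 1 without SS-2, 5 and 1 without SS-3, 4 and 1 without SS-4, and 4 and 0 without SS-5. They were 8 and 2 without CTR-1, 5 and 3 without CTR-2, 9 and 1 without CTR-3, and 12 and 2 without CTR-5. Without CTR-1 and CTR-2 they were 6 and 4, and without CTR-5 and SS-5 they were 10 and 1. For these smaller fits, here and in the lists below, the share of all tested genes is not given. A change in count can therefore not be read as particular to these genes. The CTR and SS values did not overlap in 3 of the 111 genes (Jag2, Col4a1 and Lama4), all with SS above, which is near the 2.47% of all tested genes. Without CTR-5 and SS-5, 16 did not overlap with SS above and 5 with SS below, where 10.9% and 9.28% of all tested genes did so. Without CTR-1 and CTR-2 it was 11 and 5, against 7.5% and 7.76%.

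Among 24 ligands, receptors and partners of angiogenesis, 17 had a higher and 7 a lower mean in SS. The list had 0.14 as its median log2 fold change. Jag2, a Notch ligand, had the smallest p of this list. It was at 51.1, 49.1, 61.6 and 54.4 CPM in CTR and at 68.0, 73.7, 73.4 and 67.5 CPM in SS. Every SS library was above every CTR library. Its log2 fold change was 0.39 (SE 0.11), with an unadjusted p of 0.0046 and an adjusted p of 0.58 in edgeR, and it was 0.29 without CTR-1 and CTR-2. Nrp2, a co-receptor for VEGF and semaphorins, was the other gene of the list with an unadjusted p under 0.05 (log2 fold change 0.43, SE 0.18). The count of such genes was 1 without CTR-3, SS-2 or SS-5, and without CTR-2 it was 2 higher and 1 lower. Vegfb, the most abundant of the list per length, was at 82.3 to 141 CPM in CTR and 93.1 to 107 CPM in SS. The main vessel growth factor Vegfa averaged 76.0 ± 2.98 CPM in the CTR libraries and 85.0 ± 10.4 CPM in those of SS (SD, n = 4 each).

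Wnt ligands from neural cells induce barrier genes in endothelium through beta-catenin. Of the 18 genes of this programme, 9 had a higher and 9 a lower mean in SS. The median log2 fold change was -0.01, with 0 genes at an unadjusted p under 0.05. Reck, part of the receptor complex for the Wnt7 ligands, had the smallest p, with 2.43, 2.59, 5.57 and 9.17 CPM in CTR and 7.01 to 9.001 CPM in SS. Its log2 fold change was 0.69 (SE 0.41), 0.11 without CTR-1 and CTR-2, which were its 2 lowest libraries, and 1.21 without CTR-5 and SS-5. Ctnnb1, the gene for beta-catenin and the most abundant of the list per length, averaged 362 ± 35.1 CPM in the CTR libraries and 350 ± 14.5 CPM in those of SS (SD, n = 4 each).

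The 29 other endothelial genes were also balanced, with 13 higher and 16 lower in SS, a median log2 fold change of -0.01 and 0 at an unadjusted p under 0.05. Ptprb, the endothelial phosphatase that opposes Tek, had the smallest p, with a log2 fold change of 0.40 (SE 0.20). It was 0.09 without CTR-1 and CTR-2 and 0.54 without CTR-5 and SS-5. Spock2, a matrix proteoglycan gene made largely by neurons and astrocytes, was the most abundant per length and had a log2 fold change of 0.05 (SE 0.07). Of the 10 genes of endothelial activation, 7 passed the filter, 4 higher and 3 lower. The leukocyte adhesion genes Sele and Selp and the acute phase gene Lcn2 were at or near 0: Selp had no count in any library, Sele at most 0.646 CPM (CTR-2), and Lcn2 at most 0.0415 CPM. Vcam1, another adhesion gene, averaged 25.5 ± 1.31 CPM in the CTR libraries and 25.3 ± 3.28 CPM in those of SS (SD, n = 4 each). Ackr1, a chemokine-binding protein of venules, was the most abundant of the list per length and was at 7.47 to 26.2 CPM in CTR and 12.1 to 15.5 CPM in SS.

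The basement membrane list had most of the unadjusted calls. Of its 14 genes, 10 had a higher and 4 a lower mean in SS (median log2 fold change 0.34), and 6 were higher (Col4a1, Col4a2, Lama4, Lamc1, Agrn and Fn1) and 1 lower (Lamb1) at an unadjusted p under 0.05, against 2.85% and 3.7% of all tested genes. These counts moved with single libraries: 2 higher and 2 lower without CTR-2, 4 and 1 without CTR-1, 6 and 0 without CTR-3, and 5 and 1 without CTR-5. They were 2 and 1 without SS-2, SS-3 or SS-4, and 3 and 0 without SS-5. Without CTR-1 and CTR-2 together they were 2 and 2, with a median of 0.16, and without CTR-5 and SS-5 they were 3 and 0, with a median of 0.40.

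Col4a1, which encodes the alpha1 chain of collagen IV, the main network protein of vascular basement membrane, was at 84.9, 73.7, 96.0 and 84.2 CPM in CTR and at 112, 118, 140 and 122 CPM in SS. Every SS library was above every CTR library. Its log2 fold change was 0.54 (SE 0.11, 95% interval 0.29 to 0.78). It passed the threshold in DESeq2 (adjusted p = 0.0026) and not in edgeR (adjusted p = 0.24), and it was 0.45 without CTR-1 and CTR-2. Its partner chain gene Col4a2, which lies next to it and shares its promoter region, was at 151, 73.7, 164 and 120 CPM in CTR and at 156, 160, 194 and 180 CPM in SS. The groups overlapped for Col4a2, with CTR-2 far below the rest. Lama4, the endothelial laminin alpha4 chain, was at 3.67, 1.29, 9.55 and 8.46 CPM in CTR and at 13.7, 11.3, 9.75 and 13.2 CPM in SS, with CTR-1 and CTR-2 far below the other 6. Lamb1, a laminin beta chain gene, was the only unadjusted call of the list that was lower in SS. It was at 12.2, 11.2, 18.4 and 19.4 CPM in CTR and at 9.90, 9.15, 12.3 and 7.43 CPM in SS. Sparc, a collagen-binding protein gene made by vessels and glia and the most abundant of the list per length, had a log2 fold change of -0.10 (SE 0.13), and 0.17 without CTR-1 and CTR-2.

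**Figure D5:**
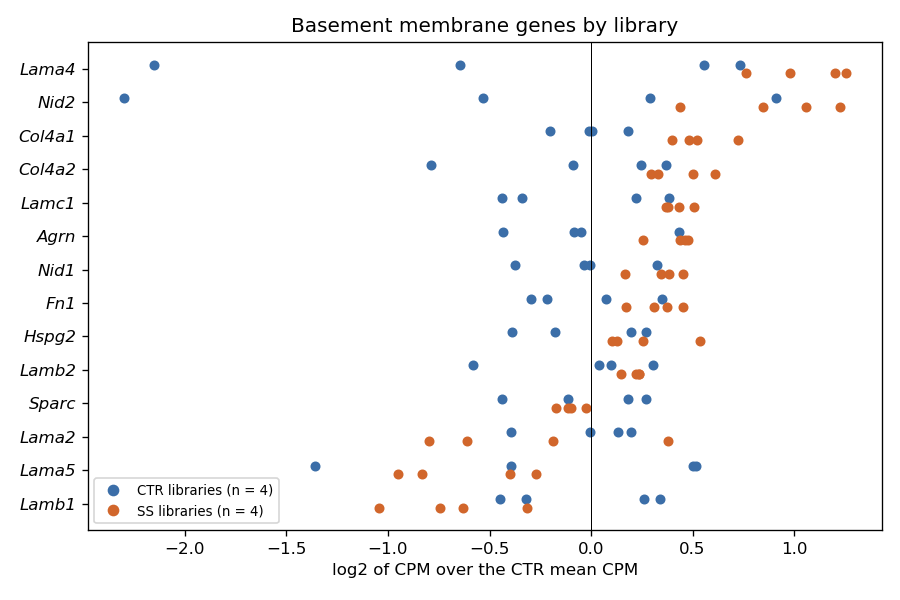
The 14 basement membrane genes in every library, as log2 of CPM over the CTR mean, with CTR libraries in blue and SS libraries in orange. SS points lie to the right of all CTR points in Col4a1 and Lama4, and the far left points of Lama4, Nid2 and Lama5 are CTR-2.

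Of 21 other mural genes, 19 passed the filter, 16 with a higher and 3 with a lower mean in SS, and their median log2 fold change was 0.33. Without CTR-1 and CTR-2 it was 0.06, with 11 higher and 8 lower. Without CTR-5 and SS-5 it was 0.35, with 16 higher and 3 lower. Mcam, the adhesion molecule CD146, had the smallest p, with 43.7, 61.4, 66.3 and 48.0 CPM in CTR and 71.3, 64.4, 69.8 and 70.1 CPM in SS (log2 fold change 0.33, SE 0.14, edgeR adjusted p = 0.75). It was the only gene of the list with an unadjusted p under 0.05, and this count was 0 higher and 1 lower without CTR-1, 2 higher without CTR-3, and 0 without SS-2, SS-4 or SS-5. Myh11, the smooth muscle myosin heavy chain gene, was at 16.0, 0.929, 4.41 and 13.5 CPM in CTR and 11.2 to 19.7 CPM in SS, with CTR-2 and CTR-3 low as in Acta2. Tpm1, a tropomyosin gene also expressed in neurons, was the most abundant of the list per length, at 137 to 161 CPM in CTR and 127 to 140 CPM in SS.

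Genes of other cells in and around vessels were summed per library. The 11 markers of perivascular fibroblasts and meninges were at 75.9 to 132 CPM in CTR, lowest in CTR-1, and at 128 to 142 CPM in SS, with 10 of 11 past the filter and 8 of these higher in SS. Their median log2 fold change was 0.36, 0.02 without CTR-1 and CTR-2, and 0.61 without CTR-5 and SS-5. Their part in the pericyte, other mural and basement membrane values was not tested. The 5 red blood cell markers, a sign of blood left in the vessels, were at 45.4 to 82.8 CPM in CTR and at 49.9 to 65.1 CPM in SS, and were lowest in CTR-1 and CTR-2. Of these Hba-a2 was at 0 in every library. The 7 choroid plexus and ependyma markers summed to 270 CPM in CTR-5 and to 23.7 to 48.1 CPM in the other 7 libraries. Astrocytes, whose endfeet cover the capillaries, had 7 markers with 2115 to 3202 CPM in CTR and 2525 to 2925 CPM in SS, lowest in CTR-1. The 8 microglia and macrophage markers were at 171 to 237 CPM in CTR, highest in CTR-2, and at 164 to 183 CPM in SS. The 6 oligodendrocyte markers were at 22128 to 31366 CPM in CTR and at 25196 to 27961 CPM in SS. The 8 neuron markers were at 4132 to 4449 CPM in CTR and at 3520 to 3871 CPM in SS. The lower sum was not shared by all of them: taken singly, 4 had the higher mean in SS and 4 the lower. Their median difference on the log2 scale was -0.017, and only 1 marker, with SS below, had groups that did not overlap. In the sums of the vascular classes themselves, the SD between libraries was 31.6 CPM in CTR and 12.1 CPM in SS for pericyte genes, 13.5 and 4.69 CPM for smooth muscle genes, 112 and 35.8 CPM for transport genes, 41.3 and 37.7 CPM for endothelial genes, and 19.4 and 18.1 CPM for tight junction genes. The difference in spread was not tested.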

How the data were processed

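RNA from bilateral VTA punches of 4 CTR and 4 SS mice was sequenced, 1 library per mouse (single-end 75 bp reads after poly(A) selection). The authors used Cutadapt for trimming, STAR for alignment to mm10 and htseq-count with an Ensembl annotation, and deposited whole counts per gene without normalization. Tool versions and the strand setting are not given in the sources used here. The mm10 reference is from another strain (C57BL/6J), so reads over strain differences may be lost. Libraries were grouped by their labels, and keep their numbers (CTR-1, SS-2).

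In R 4.3.3, genes were kept with filterByExpr of edgeR 4.0.16 (minimum count 10, minimum total 15), libraries normalized with TMM, and groups compared with glmQLFit and glmQLFTest, the group being the only term, with Benjamini-Hochberg adjustment over 16538 genes at 0.05. SE is the absolute log2 fold change over the root of the F statistic. The log2 CPM values used a prior count of 2. Alternatives were DESeq2 1.42.0 with default options (the study's test), limma 3.58.1 voom, DESeq2 size factors, upper-quartile normalization, no filter, a mean count of at least 50, the other quasi-likelihood estimate of edgeR, the replicate number as a block, each library left out, CTR-5 with SS-5 left out, and CTR-1 with CTR-2 left out. The edgeR, DESeq2 and voom tests were checked on simulated data. P-values measure the spread between these libraries, and floors of 3 counts cover counting error only. Library totals were 20036086 to 47319997 counts.

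Positions and exon lengths came from GENCODE M21 (GRCm38, the build of mm10), and upstream sequences from RefSeq. Shared sequence was read as the share of 75-base windows of a member's transcripts that occur in another gene. The members and lists were chosen with earlier results of these data known, so no p-value is given for a list. Named in full are members without overlap, with an unadjusted p under 0.05, most abundant per kb in a class or with 1 outlying library, and of each further list the gene with the smallest p and the most abundant per kb. 1 gene that this rule names is not reported here. Other genes were named after their values were seen.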

Additional observations from a re-analysis of the deposited data

Results flagged for a closer look

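In 6 of 106 groups of 4 libraries (36 members, the further named genes and the class means, in CTR and in SS), 1 library lay apart from the other 3, with a gap over 0.829 of the whole range of the group. Chance gives about 1 in 20 such groups, or 5.3 here. Flt1 was highest in SS-4, at 94.0 CPM, with a gap of 0.952 of the range of SS. Sox17 was highest in SS-5, at 10.2 CPM, with a gap of 0.945, and SS-5 is a library whose sex transcripts go against its label. Tpm1 was lowest in SS-5, at 127 CPM, with a gap of 0.969. Tie1 was lowest in CTR-2, at 7.68 CPM, with a gap of 0.914. The mean of the endothelial class was also lowest in CTR-2, at 3.88 log2 CPM, with a gap of 0.835. The mean of the tight junction class was lowest in CTR-1, at 4.13 log2 CPM, with a gap of 0.849. CTR-1 and CTR-2 are the libraries poor in low transcripts.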

How the results depend on the processing

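The count of members called was 0 under all 18 alternatives. The 5 class medians moved by less than 1 SD of the class mean log2 CPM between libraries, pooled over both groups, under each of them. This SD is a loose bound for pericyte genes, at 0.67 (0.95 in CTR and 0.07 in SS). Their median of 0.27 stayed within it although it was 0.05 without CTR-1 and CTR-2. For smooth muscle genes the SD was also wide (1.11, with 1.54 in CTR and 0.30 in SS), and their median was 1.24 with the replicate block. The count over the further lists was 1 with DESeq2 (Col4a1, log2 fold change 0.54) and 0 otherwise. Of 864 values of single genes under an alternative, 809 kept their sign and their side of the threshold, 54 changed sign, none of them past the threshold, and the cause was not tested. Log2 fold changes that changed sign were for Esam -0.0028 with DESeq2 size factors, -0.013 with a mean count of at least 50 and -0.0021 with the other quasi-likelihood estimate, and for Slc7a5 -0.0039 with voom. Without CTR-5 and SS-5 they were 0.063 for Flt1 and -0.020 for Abcg2. Without CTR-1 and CTR-2 they were -0.20 for Cdh5, -0.12 for Tek, -0.069 for Esam, 0.092 for Eng, 0.059 for Ly6a, -0.057 for Itm2a, -0.019 for Abcb1a, -0.092 for Abcg2, 0.099 for Mfsd2a, -0.12 for Slc7a5, -0.066 for Rgs5, 0.095 for Vegfb, 0.32 for Ackr1 and 0.17 for Sparc. Deviations from the group mean had correlations of -0.0077 to 0.060 between libraries with the same number, in 3 pairs. Such values cannot exclude a shared litter or batch, which the labels do not give. CTR-5 and SS-5, the pair at 0.060, also share sex transcripts that go against the label. With the replicate block, 0 members were called and sign changes were 0.0017 for Eng, 0.14 for Ly6a, -0.036 for Abcb1a, -0.17 for Abcg2, -0.073 for Slc7a5, 0.056 for Vegfb and 0.30 for Ackr1. With each library left out in turn, values that changed sign ranged from -0.17 to 0.11 for Eng, -0.23 to 0.21 for Ly6a, -0.17 to 0.29 for Abcg2, -0.036 to 0.077 for Slc7a5, -0.22 to 0.048 for Vegfb, -0.41 to 0.21 for Ackr1, -0.055 to 0.27 for Cdh5, -0.017 to 0.44 for Tek, -0.16 to 0.12 for Esam, -0.0031 to 0.18 for Rgs5, -0.013 to 0.34 for Myl9, -0.18 to 1.01 for Tagln, -0.22 to 0.0017 for Sparc, -0.20 to 0.023 for Flt1 and -0.0077 to 0.14 for Vtn. At this depth 3 counts were 0.155 CPM in CTR-1 and 0.121 CPM in CTR-2, the libraries in which Higd1b had no count.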
